A study of Bos taurus with 6 samples.

Results

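The genes of the unfolded protein response and the chaperones were examined in bovine preadipocytes transfected with bta-miR-484. The list held 44 of the 23475 genes with a deposited value, was chosen by gene symbol, and left out the small heat shock proteins. All 44 genes were found and all 44 passed the filter on low values. For every gene the level with the bta-miR-484 agomir, a chemically modified RNA that supplies the miRNA to the cell, was compared with the level under the agomir NC, its negative control.

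The study asked how bta-miR-484 acts on the proliferation, differentiation and apoptosis of preadipocytes, the precursors of fat cells, which were isolated from subcutaneous fat of calves. RNA was collected 48 h after transfection from 3 agomir libraries and 3 agomir NC libraries, and both groups of cells were grown in the same serum-containing medium. It was not stated if replicates were separate calves or separate cultures, so p-values measure the spread between these samples, which may be technical. The level of a gene was given as FPKM, a count of fragments normalised to transcript length and to the mapped fragments of the library. Because FPKM carries no read numbers, sequencing depth per library is unknown.

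Proteins that enter the secretory pathway fold in the endoplasmic reticulum (ER) with the help of chaperones and of enzymes that form disulfide bonds. When unfolded proteins build up there, the sensors encoded by ERN1 (IRE1), EIF2AK3 (PERK) and ATF6 switch on the unfolded protein response, which raises the output of ER chaperones and slows translation through the integrated stress response. Cytosolic and mitochondrial chaperones are governed by other programmes, among them the heat shock factors, and fibroblast-like cells such as preadipocytes carry a heavy ER load because they secrete collagen.

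The labels call the cells adipocytes. Of the 12 adipocyte markers, ADIPOQ did not exceed 0.197 FPKM in any library, and LEP and CIDEC were each listed at 0 in 4 of the 6. The summed level of these markers was 16.6, 17.2 and 18.6 FPKM in agomir libraries 1 to 3 and 17.8, 17.7 and 16.3 FPKM in agomir NC libraries 1 to 3. These sums hold genes of both directions: of the 23 markers of all lists that were tested, 3 were under an unadjusted p of 0.05 and 0 under an adjusted p. Over all genes tested 6.63% were higher and 4.31% lower at that unadjusted p. FABP4 was lower with the agomir, at 1.82, 2.33 and 1.54 FPKM versus 3.57, 2.21 and 2.88 FPKM under agomir NC, and its groups overlapped. PPARG was higher, at 3.99, 3.69 and 3.91 FPKM against 3.39, 3.34 and 2.96 FPKM, without overlap. The stromal marker DCN was lower, at 2840.4, 2899 and 2850.4 FPKM against 2991, 3102 and 3248 FPKM, also without overlap. CIDEA (higher) and PRRX1 (lower) did not overlap either, but were not under an unadjusted p of 0.05. Over all genes tested 10.9% were higher and 6.36% lower without overlap. The 12 stromal and preadipocyte markers summed to between 23930 and 25109 FPKM, with COL3A1 the most abundant and DLK1 listed at 0 throughout. Markers of other cell types were low: the endothelial list did not exceed a sum of 4.54 FPKM in any library, the immune list 8.27 FPKM, most of it CD14, the muscle list 0.623 FPKM and the epithelial list 0.414 FPKM. Stromal markers were thus high and adipocyte markers low in both groups.

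No member passed an adjusted p of 0.05 in limma, where 1 of the 12422 genes tested did (0.00805%). At an unadjusted p under 0.05, 2 members were higher with the agomir, XBP1 and HSPA8, and 2 were lower, DDIT4 and HSPE1. Each direction held 4.55% of the members, against 6.63% of all genes tested for higher and 4.31% for lower levels. The split over all genes was 824 higher against 535 lower, and 673 against 688 once the libraries were scaled by median ratios. The agomir and agomir NC libraries did not overlap for 2 members that were higher (XBP1 and SEL1L) and 2 that were lower (DDIT4 and P4HB), again 4.55% each, against 10.9% and 6.36% of all genes tested. In this fit the list thus held no larger share of such genes than the whole table, apart from lower levels at an unadjusted p under 0.05, where the shares were close. Other settings differed in this. With median-ratio scaling 6 members (13.6%) were lower without overlap, against 8.002% of all genes tested, and 3 (6.82%) were lower at an unadjusted p under 0.05, against 5.54%. The share of lower members was the larger in 4 of the 16 alternatives for groups without overlap and in 11 for the unadjusted p. Over the 44 members 17 values were higher and 27 lower with the agomir (over all genes tested 55.1% were higher and 44.9% lower), with a median log2 fold change of −0.04 against 0.013 over all genes tested. With median-ratio scaling 10 were higher and 34 lower. That scaling moves all genes of a library alike, and with it the median over all genes tested went to −0.00071. Without agomir NC replicate 3 the balance turned to 26 higher and 18 lower, while 9 were higher without agomir NC replicate 2 and 11 without agomir replicate 2. Counts at an unadjusted p under 0.05 also depended on single libraries. Without agomir replicate 1, agomir replicate 2 or agomir NC replicate 2, 0 members were higher, against 5.82%, 4.47% and 5.28% of all genes tested. Without agomir replicate 3, 1 was higher (2.27%, against 5.24%). Without agomir NC replicate 3, 3 were higher (6.82%, against 5.93%) and 1 was lower (2.27%, against 3.08%). Fold changes are on the log2(FPKM + 0.5) scale, where differences of weakly expressed genes appear smaller than they are.

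A single library stood apart in the ER genes. Agomir NC replicate 3 had the highest level of its group in 16 of the 16 ER chaperone and folding enzyme genes, and the highest of all 6 libraries in 15, the exception being ERO1A. Over all genes tested, that library was the highest of its group in 37.2%, and over the 5515 genes averaging 10 FPKM or more in 43.4%. It was the highest of all 6 in 2416 of the 12422 genes tested, and in 1331 of those 5515. Of the other members, it was the highest of all for ERN1, ATF4, DDIT3, DDIT4, ASNS, PPP1R15A, HERPUD1, EDEM1, HSPA4, DNAJA1, HSPA9, HSPE1 and HSF1. It also had the highest summed FPKM, 379361 against 365977 to 369489 in the other libraries, and its values differed with gene span by −0.049 log2 units per log10 unit of span, against 0.050 in agomir replicate 2 and between −0.0047 and 0.0092 in the rest. After the trend with gene span was removed, 14 of the 16 ER genes were lower with the agomir, against 13 before. Their median log2 fold change was then −0.07, against −0.06. The part of summed FPKM and of gene span in the ER levels of agomir NC replicate 3 was not tested. In bulk samples, fewer cells of a kind and less RNA per cell cannot be told apart.

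HSPA5 encodes BiP, the main Hsp70 chaperone of the ER and the partner that holds the stress sensors inactive. Its level was 500.2, 454 and 393 FPKM in agomir replicates 1 to 3 (449 ± 53.8, mean ± SD, n = 3) and 478, 411 and 548 FPKM in agomir NC replicates 1 to 3 (479 ± 69.0). The groups overlapped, with the highest value in the agomir NC group and the lowest in the agomir group. The log2 fold change was −0.09 (SE 0.11, adjusted p = 0.802 in limma), with a 95% interval from −0.33 to 0.15. HSP90B1, the ER paralog of Hsp90, stood at 307, 282 and 261 FPKM under the agomir versus 294, 264 and 340.4 FPKM under agomir NC. Its libraries fell in the same order as those of HSPA5 and the groups overlapped. For HSP90B1 the log2 fold change was −0.08 (SE 0.088, adjusted p = 0.799 in limma). Without agomir NC replicate 3 the sign turned in both genes, to 0.012 for HSPA5 and 0.021 for HSP90B1, and without agomir replicate 3 HSPA5 was at 0.0024.

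The lectin chaperones CALR and CANX retain glycoproteins until they are folded. CALR stood at 308, 292 and 283 FPKM under the agomir versus 306, 282 and 328 FPKM under agomir NC. For CANX, which is bound to the membrane, the values were 158, 165 and 158 FPKM against 152, 144 and 173 FPKM. Both genes overlapped between the groups, and in both the agomir NC libraries held the lowest and the highest value. HYOU1, which recharges BiP with nucleotide, was at 43.1, 39.1 and 36.8 FPKM under the agomir versus 40.9, 36.6 and 46.3 FPKM under agomir NC.

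The J-domain partners of BiP deliver clients to it. DNAJB9 was measured at 15.3, 15.3 and 13.5 FPKM under the agomir versus 13.1, 11.8 and 15.9 FPKM under agomir NC. DNAJB11 stood at 31.4, 26.6 and 24.2 FPKM against 26.6, 27.97 and 34.7 FPKM. DNAJC3, which also inhibits PERK, ranged from 41.0 to 48.9 FPKM over the 6 libraries. Agomir NC replicate 3 was the highest library for these genes, and the groups overlapped in each.

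MANF and CRELD2, ER proteins induced by the unfolded protein response, had the largest SD within groups of the 44 members, 0.24 and 0.25 log2 units. MANF stood at 58.4, 52.6 and 47.9 FPKM under the agomir (53.0 ± 5.26) versus 54.7, 44.4 and 69.0 FPKM under agomir NC (56.1 ± 12.4), so that the agomir NC libraries differed among themselves by a factor of 1.55. CRELD2 was at 20.7, 17.7 and 15.5 FPKM under the agomir versus 19.6, 15.6 and 23.5 FPKM under agomir NC, a factor of 1.51 within the latter. In both genes the means of the groups lay closer together than the libraries of either group. SDF2L1, a partner of DNAJB11, was at 17.1, 13.2 and 15.9 FPKM under the agomir versus 16.1, 17.1 and 20.8 FPKM under agomir NC. Its groups overlapped, since agomir replicate 1 lay above agomir NC replicate 1. The log2 fold change of SDF2L1, −0.22 (SE 0.11, adjusted p = 0.511 in limma), was the largest in size of the 44 members in this fit, though not with array weights or without agomir replicate 2, agomir NC replicate 2 or agomir NC replicate 3. Without single libraries it ran from −0.30 to −0.11.

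**Figure D1:**
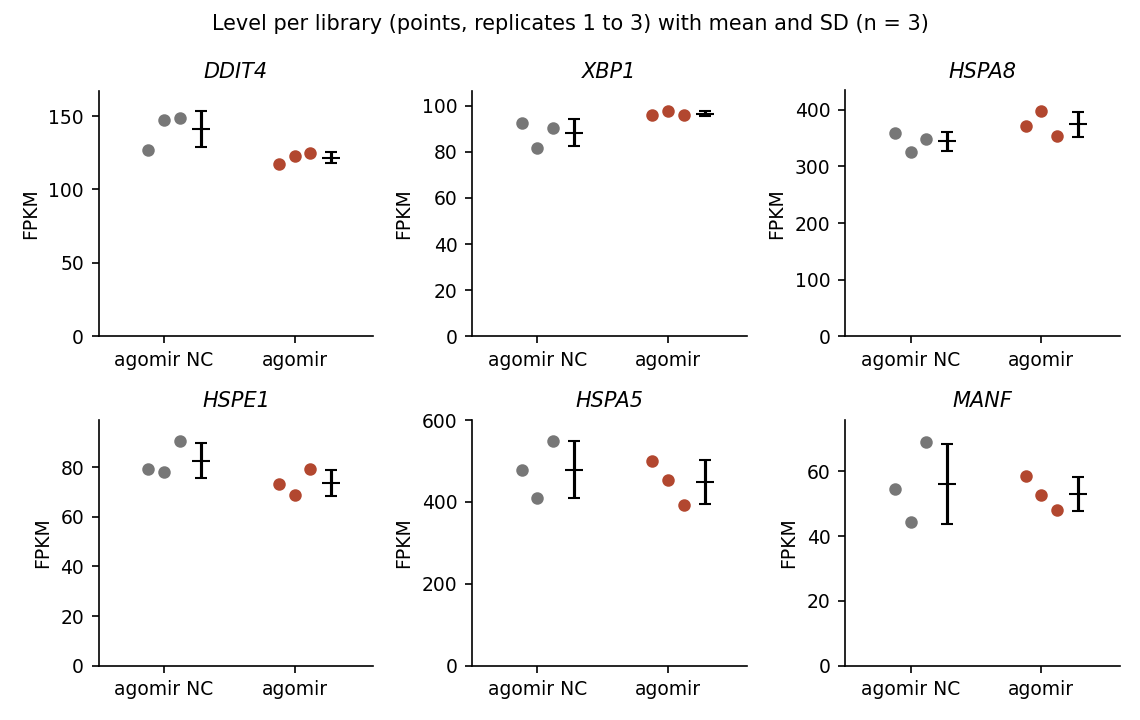
FPKM per library for DDIT4, XBP1, HSPA8, HSPE1, HSPA5 and MANF in the agomir NC group (grey) and the agomir group (red), points in the order of replicates 1 to 3, with bars for the mean ± SD (n = 3) and axes that start at 0. The groups do not overlap for DDIT4 and XBP1, and agomir NC replicate 3 is the highest library for HSPA5 (548 FPKM) and MANF (69.0 FPKM).

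Enzymes of oxidative folding make and rearrange disulfide bonds. PDIA3, which works with the lectin chaperones, stood at 417, 416 and 413 FPKM under the agomir versus 425, 416 and 457 FPKM under agomir NC. P4HB, the classical protein disulfide isomerase and a subunit of the collagen prolyl hydroxylase, was at 399.7, 406 and 408 FPKM under the agomir versus 418, 413 and 421 FPKM under agomir NC. All 3 agomir libraries of P4HB lay below all 3 agomir NC libraries. It was the only ER folding gene of the 16 without overlap (6.25% lower, against 6.36% of all genes tested). None was higher without overlap, against 10.9% of all genes tested. The log2 fold change of P4HB was −0.045 (SE 0.035, adjusted p = 0.678 in limma), and with quantile normalization it was 0.011. PDIA4 ranged from 98.05 to 119 FPKM and PDIA6 from 129 to 143 FPKM, with overlapping groups. ERO1A, the oxidase that recharges the disulfide isomerases, was at 32.9, 38.3 and 33.1 FPKM under the agomir versus 33.5, 33.5 and 37.1 FPKM under agomir NC.

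At an unadjusted p under 0.05 in limma, 6.63% of all genes tested were higher and 4.31% lower. Taken by list, 0 of the 16 ER genes passed an unadjusted or an adjusted p of 0.05. Their log2 fold changes were lower with the agomir in 13, against 44.9% of all genes tested, and higher in 3 (CANX, DNAJB9 and ERO1A); with median-ratio scaling 14 were lower and with quantile normalization 12. The median was −0.06. Without agomir NC replicate 3 the direction of the list turned: 6 of the 16 were lower and the median was 0.0068. In that fit CANX (log2 fold change 0.12) and DNAJB9 (0.23) were higher at an unadjusted p under 0.05. Over all genes tested 5.93% were higher at that p. SDF2L1 was lower at an unadjusted p under 0.05 without agomir replicate 1 (−0.30), without agomir NC replicate 1 (−0.29) and when libraries of the same number were blocked. In these fits 4.0%, 4.8% and 4.2% of all genes tested were lower at that p. After the trend with gene span was removed, 14 were lower and the median was −0.07.

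Most of the 16 ER genes were high or low in the same libraries. As the median deviation from the mean of the 6 libraries, the ER genes stood at 0.042, −0.036 and −0.083 log2 units in agomir replicates 1 to 3 and at 0.019, −0.087 and 0.17 in agomir NC replicates 1 to 3. Agomir NC replicate 3 was thus the highest library, while the values of the lowest pair, agomir NC replicate 2 and agomir replicate 3, were close. Agomir NC replicate 2 was the lowest of its group in 13 of the 16 genes (in 37.7% of all genes tested), agomir replicate 1 the highest of its group in 12 (29.9%), and agomir replicate 3 the lowest in 12 (33.5%). Summed over the 16 genes, the level was 2597, 2495 and 2374 FPKM under the agomir (2489 ± 111) versus 2571, 2393 and 2825 FPKM under agomir NC (2596 ± 217, n = 3 each), so that by the sums agomir replicate 3 was the lowest library. The median SD within groups was 0.16 log2 units over the 11 ER chaperones and 0.051 over the 5 oxidative folding genes, against 0.073 over genes averaging 10 FPKM or more.

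**Figure D2:**
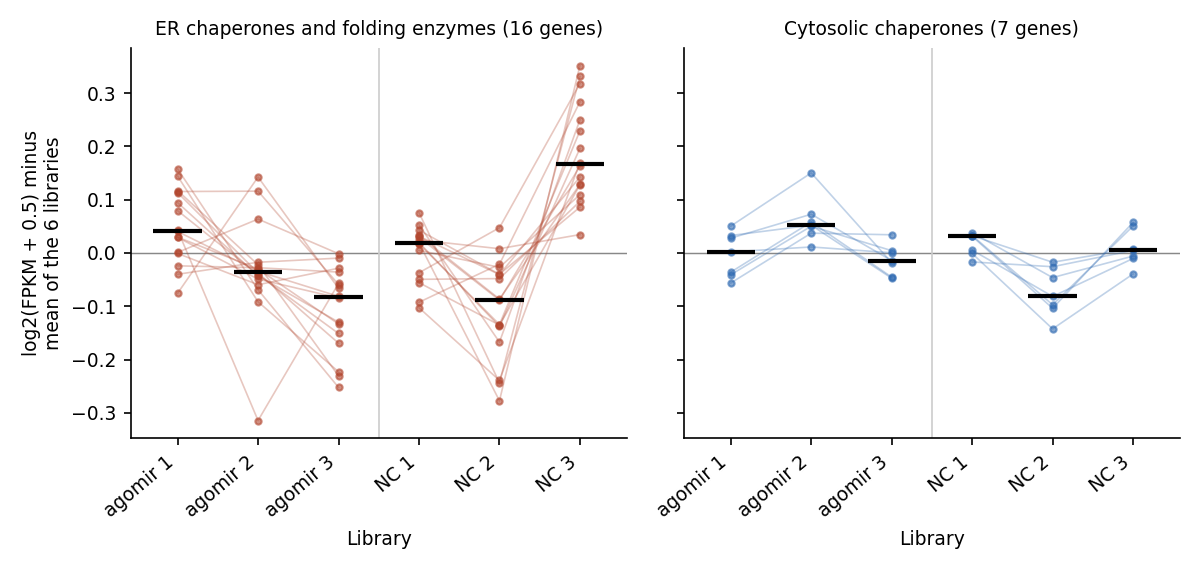
Deviation of each gene from its mean over the 6 libraries, in log2(FPKM + 0.5), for 16 ER chaperones and folding enzymes (left) and 7 cytosolic chaperones (right) in the agomir and agomir NC (NC) libraries; points are genes, thin lines join a gene within a group, and black bars are medians. The ER genes are highest in agomir NC replicate 3 (median 0.17), and the cytosolic genes deviate less.

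Of the sensors and transcription factors of the response, XBP1 differed most between the groups in this fit. Without agomir NC replicate 2 the log2 fold change of DDIT3 was larger in size (−0.10, against 0.077 for XBP1). XBP1 encodes the factor whose mRNA is spliced by IRE1, and its level was 95.8, 97.8 and 95.9 FPKM under the agomir (96.5 ± 1.12, n = 3) versus 92.6, 81.7 and 90.4 FPKM under agomir NC (88.2 ± 5.77, n = 3). Every agomir library lay above every agomir NC library. The log2 fold change was 0.13 (SE 0.052, adjusted p = 0.406 in limma), and the two-sided exact permutation p was 0.1, the lowest value possible with n = 3 per group. XBP1 did not pass an unadjusted p of 0.05 with no variance trend, when agomir replicate 1, 2 or 3 was left out (log2 fold changes 0.14, 0.12 and 0.14) or when agomir NC replicate 2 was (0.077). The value is for total XBP1 mRNA, and splicing cannot be read from it.

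The sensors were expressed at low to moderate levels. ERN1 ranged from 2.56 to 2.75 FPKM over the 6 libraries, EIF2AK3 from 9.27 to 10.7 FPKM and ATF6 from 18.9 to 20.9 FPKM, each with overlapping groups. ATF4, the factor translated when the integrated stress response slows other translation, stood at 224, 228 and 220.3 FPKM under the agomir versus 225, 217 and 229.96 FPKM under agomir NC. The groups of ATF4 were interleaved and its log2 fold change was 0.00061 (SE 0.039, adjusted p = 0.997 in limma), with a 95% interval from −0.087 to 0.088; the sign turned with median-ratio scaling (−0.015). DDIT3 (CHOP), a factor of prolonged ER stress, was at 41.9, 38.7 and 38.9 FPKM under the agomir versus 38.7, 38.1 and 47.0 FPKM under agomir NC. Agomir NC replicate 3 was again the highest library and the groups overlapped. The log2 fold change of DDIT3 was −0.05 (SE 0.079, adjusted p = 0.878 in limma) and 0.051 without agomir NC replicate 3.

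Among targets of the integrated stress response, DDIT4 was lower with the agomir. DDIT4, also called REDD1, restrains mTORC1 signalling under stress. It stood at 117, 123 and 125 FPKM under the agomir (121 ± 3.79, n = 3) versus 127, 147 and 149 FPKM under agomir NC (141 ± 12.2, n = 3). All agomir libraries lay below all agomir NC libraries, with agomir NC replicate 1 close to the agomir values. The log2 fold change was −0.21 (SE 0.062, adjusted p = 0.31 in limma), with a 95% interval from −0.35 to −0.07, and the exact permutation p was 0.1. DDIT4 was under an unadjusted p of 0.05 in each of the 16 alternative settings, with log2 fold changes from −0.28 to −0.17.

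For each of the other 5 targets the groups overlapped. TRIB3, a pseudokinase that dampens the response, was at 18.1, 16.3 and 16.7 FPKM under the agomir versus 17.3, 16.8 and 17.6 FPKM under agomir NC. ASNS, the asparagine synthetase, stood at 102, 110.2 and 111 FPKM against 111, 108 and 114 FPKM. CHAC1, which degrades glutathione, ranged from 5.73 to 7.09 FPKM. The phosphatase subunit PPP1R15A (GADD34), which ends the translational block, ranged from 23.1 to 24.6 FPKM, so libraries of both groups were within a narrow span. Its constitutive counterpart PPP1R15B was at 30.2, 30.4 and 31.1 FPKM under the agomir versus 30.2, 27.99 and 28.7 FPKM under agomir NC.

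In ER-associated degradation, which returns misfolded proteins to the cytosol, the mean of SEL1L was higher and that of HERPUD1 lower with the agomir, neither at an unadjusted p under 0.05. SEL1L, the scaffold of the ubiquitin ligase SYVN1, stood at 44.7, 45.0 and 43.5 FPKM under the agomir versus 42.9, 42.3 and 42.8 FPKM under agomir NC. The groups of SEL1L did not overlap, although the distance was small. Its log2 fold change was 0.06 (SE 0.042, adjusted p = 0.661 in limma), and 0.028 after the trend with gene span was removed. HERPUD1, a stress-inducible organiser of the same complex, was at 75.6, 77.6 and 69.2 FPKM under the agomir versus 79.9, 76.2 and 88.0 FPKM under agomir NC. SYVN1 ranged from 13.2 to 15.9 FPKM and EDEM1, which acts on misfolded glycoproteins, from 26.1 to 29.4 FPKM. The groups of HERPUD1, SYVN1 and EDEM1 overlapped. For HERPUD1 the log2 fold change was −0.13 (SE 0.063, adjusted p = 0.487 in limma), with values from −0.18 to −0.074 without single libraries. HERPUD1 was lower at an unadjusted p under 0.05 with median-ratio scaling, after the trend with gene span was removed, and when replicate 2 of either group was left out.

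The cytosolic chaperones varied less than those of the ER. HSPA8, the constitutive Hsp70 of the cytosol, stood at 372, 398 and 354 FPKM under the agomir (375 ± 22.1, n = 3) versus 359, 325 and 349 FPKM under agomir NC (344 ± 17.3, n = 3). The groups overlapped, since agomir NC replicate 1 lay above agomir replicate 3. Between the groups the log2 fold change was 0.12 (SE 0.054, adjusted p = 0.452 in limma). HSPA8 was under an unadjusted p of 0.05 in 7 of the 16 alternatives. It was not with no filter, median-ratio scaling, no variance trend, array weights or a replicate block, nor without agomir replicate 1 or 2 or agomir NC replicate 2 or 3, and its log2 fold change without single libraries ran from 0.077 to 0.16.

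Both cytosolic Hsp90 genes were level between the groups. HSP90AA1, the inducible form, was at 197, 209.7 and 203 FPKM under the agomir versus 208, 196 and 202 FPKM under agomir NC. Its log2 fold change was 0.0092 (SE 0.042, adjusted p = 0.959 in limma), with a 95% interval from −0.084 to 0.10, and was −0.0060 with median-ratio scaling. HSP90AB1, the constitutive form, stood at 326, 348 and 323 FPKM against 341, 329.8 and 336 FPKM. The values of both genes were interleaved. Of the co-chaperones of Hsp70, HSPA4 ranged from 42.6 to 47.6 FPKM, HSPH1 from 12.9 to 14.4 FPKM, DNAJA1 from 66.6 to 73.9 FPKM and DNAJB1 from 13.4 to 14.4 FPKM. The first pair exchange nucleotide on Hsp70 and the second pair deliver clients to it.

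Over the 7 cytosolic genes 0 passed an adjusted p of 0.05 in limma. At an unadjusted p under 0.05, 1 was higher, HSPA8 (14.3%, against 6.63% of all genes tested). The log2 fold changes of the 7 genes were higher with the agomir in 6, against 55.1% of all genes tested, and lower in 1. With median-ratio scaling, which moves all genes of a library alike, 3 were higher and 4 lower. There HSPA4, HSP90AA1 and DNAJA1 turned, from 0.010, 0.0092 and 0.0091 to −0.0050, −0.0060 and −0.0060. Without agomir NC replicate 2 there were also 4 lower, and without agomir replicate 2 there were 3. The median was 0.01, so that the ER median lay 0.07 log2 units lower (−0.071); this distance ran from −0.14 without agomir replicate 1 to −0.03 without agomir NC replicate 3, and its pooled SD between libraries was 0.085. The distance was not tested. Agomir replicate 2 was the highest of its group in 7 of 7 cytosolic genes (in 40.4% of all genes tested). Agomir NC replicate 2 was the lowest of its group in 7 of 7, as in most of the ER genes. Summed over the 7 genes, the level was 1038, 1103 and 1026 FPKM under the agomir versus 1055, 987 and 1036 FPKM under agomir NC. The median SD within groups was 0.045 log2 units.

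Mitochondrial chaperones fold proteins imported into the organelle. HSPE1, the co-chaperonin Hsp10, stood at 73.4, 68.7 and 79.2 FPKM under the agomir (73.8 ± 5.30, n = 3) versus 79.2, 78.2 and 90.7 FPKM under agomir NC (82.7 ± 6.97, n = 3). The groups overlapped, since agomir replicate 3 lay just above the lower pair of agomir NC libraries. HSPE1 had a log2 fold change of −0.16 (SE 0.069, adjusted p = 0.439 in limma), and −0.095 without agomir NC replicate 3. HSPE1 did not pass an unadjusted p of 0.05 without that library, nor without agomir replicate 1 (−0.16) or 2 (−0.11), with no filter, with no variance trend or with array weights.

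HSPD1 encodes the chaperonin Hsp60, which works with Hsp10, and is the neighbour of HSPE1 in the RefSeq annotation of ARS-UCD2.0, with 0 genes between them. HSPD1 was at 95.6, 101 and 95.9 FPKM under the agomir versus 98.1, 92.6 and 96.7 FPKM under agomir NC. The groups overlapped and the log2 fold change was 0.02 (SE 0.043, adjusted p = 0.882 in limma), with no test of the difference between the 2 genes. HSPA9, the mitochondrial Hsp70, stood at 192, 202 and 196 FPKM under the agomir versus 205, 200.4 and 205 FPKM under agomir NC. Agomir replicate 2 lay above agomir NC replicate 2, and the other agomir libraries below all agomir NC libraries.

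Heat shock factors switch on the cytosolic chaperones under heat and proteotoxic stress. HSF1, the main factor, was at 28.4, 31.1 and 29.1 FPKM under the agomir versus 31.0, 28.2 and 31.8 FPKM under agomir NC. HSF2 was at 8.54, 10.4 and 8.63 FPKM against 9.17, 8.81 and 9.002 FPKM. Both genes overlapped between the groups.

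**Figure D3:**
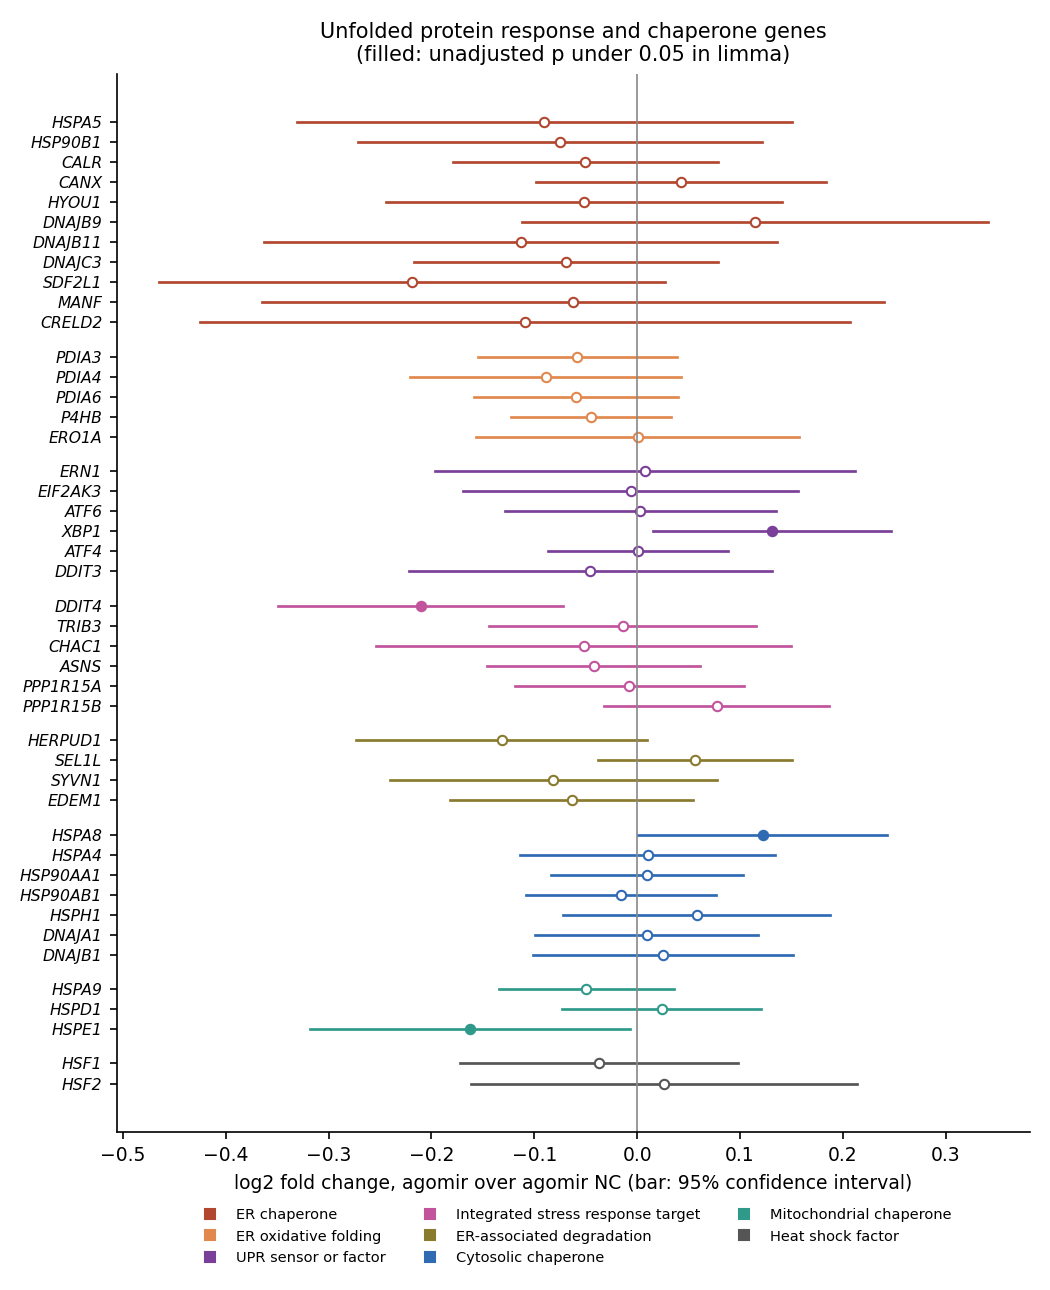
Log2 fold change of the 44 genes with the agomir against the agomir NC, on the log2(FPKM + 0.5) scale, with the 95% confidence interval as a bar and colours for the roles of the genes; filled points are under an unadjusted p of 0.05 in limma. XBP1 and HSPA8 lie above 0 and DDIT4 and HSPE1 below it, and none passed an adjusted p of 0.05.

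Reads of some members may be shared with other genes. In the RefSeq annotation 14 of the 44 members overlap another gene, among them DDIT3 with MARS1, HSF1 with DGAT1 and PDIA3 with CATSPER2. HSPA8, HSP90AA1, HSP90AB1, HSPD1, HSPE1 and DNAJA1 have near-identical pseudogene copies in mammalian genomes. How reads on several copies and on overlapping genes were counted, and whether strand was used, is not given in the sources used here, so the levels of these genes are uncertain.

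Beyond the members, 146 other genes of the same pathways were examined, of which 141 passed the filter. None passed an adjusted p of 0.05 in limma; at an unadjusted p under 0.05, 6 were higher and 6 lower with the agomir (4.26% each, against 6.63% and 4.31% of all genes tested), and the groups did not overlap for 10 higher (7.09%, against 10.9%) and 12 lower genes (8.51%, against 6.36%). At an unadjusted p under 0.05, 0 of 27 other ER folding genes were higher and 2 lower (7.41%), and of other genes of ER-associated degradation and translocation 1 of 27 was higher (3.70%) and 0 lower. Other genes of the unfolded protein and integrated stress responses held 0 higher and 4 lower of 32 (12.5%). Of 42 other cytosolic chaperone genes 3 were higher (7.14%) and 0 lower, and of 13 other mitochondrial genes 2 were higher (15.4%) and 0 lower. Of these 12 genes, DNAJC7 and HSPBP1 were under an unadjusted p of 0.05 in each of the 16 alternatives, DNAJA3 and PHGDH in 15, FKBP10 in 14, PPIB in 13 and CHORDC1 in 10. CREB3L1 was in 8, SSR3 and CLPB in 7, ATF5 in 6 and MBTPS1 in 5. Without single libraries, log2 fold changes went down to 0.073 for SSR3 and 0.11 for CHORDC1, from 0.13 and 0.18, and ran from −0.24 to −0.11 for ATF5, around −0.17.

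The 3 cytosolic genes higher at an unadjusted p under 0.05 were co-chaperones of Hsp70 and Hsp90. DNAJC7, which passes clients between Hsp70 and Hsp90, stood at 26.8, 26.7 and 25.8 FPKM under the agomir versus 23.1, 22.7 and 23.9 FPKM under agomir NC, without overlap. Its log2 fold change was 0.18 (SE 0.049, adjusted p = 0.301 in limma). HSPBP1, a nucleotide exchange factor of Hsp70, was at 18.7, 18.1 and 18.6 FPKM against 16.8, 16.4 and 16.6 FPKM, also without overlap. CHORDC1, an Hsp90 partner, was at 15.2, 14.7 and 15.5 FPKM against 11.99, 13.4 and 14.5 FPKM, without overlap but with agomir NC replicate 3 close to the agomir libraries. The mitochondrial J-domain protein DNAJA3 was at 27.3 ± 0.588 FPKM under the agomir versus 24.3 ± 1.55 FPKM under agomir NC (n = 3), and the disaggregase CLPB at 5.06 ± 0.33 and 4.32 ± 0.399 FPKM. SSR3, a subunit of the translocon-associated complex, was at 111 ± 2.47 and 102 ± 7.67 FPKM. Of these genes DNAJA3 did not overlap between the groups, while CLPB and SSR3 did.

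The 6 genes lower at an unadjusted p under 0.05 were on the lists of ER folding and of the stress responses, a difference between lists that was not tested; of the 12 genes lower without overlap, 5 were on the other lists. PHGDH, the first enzyme of serine synthesis and an ATF4 target, stood at 217, 216 and 218 FPKM under the agomir versus 234, 233 and 237 FPKM under agomir NC, with little spread in either group and no overlap. Its log2 fold change was −0.11 (SE 0.035, adjusted p = 0.333 in limma). PPIB, an ER prolyl isomerase that acts on collagen, was at 299, 286 and 301 FPKM against 314, 317 and 335 FPKM. FKBP10, another isomerase of collagen folding, was at 158, 163 and 167 FPKM against 176, 177 and 173 FPKM. The groups of PPIB and FKBP10 did not overlap, and log2 fold changes were −0.12 and −0.11; with quantile normalization that of PPIB was −0.058. CREB3L1, an ER-bound factor that drives collagen secretion, was at 112 ± 1.45 FPKM under the agomir versus 119 ± 2.96 FPKM under agomir NC (n = 3). MBTPS1, the protease that releases ATF6, was at 25.6 ± 0.298 and 27.6 ± 0.643 FPKM. Neither overlapped, whereas ATF5, a factor of the stress response, did, at 85.9 ± 7.19 and 97.1 ± 9.18 FPKM.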

How the data were processed

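RNA of 3 agomir and 3 agomir NC samples was sequenced. FPKM was the unit of the values the authors deposited. The submitters' processing notes name fastp, HISAT2, StringTie and the build ARS-UCD1.2, without versions or annotation. No column was left unmapped. Weakly expressed genes showed no steps of whole reads, so read numbers were not recovered and no counting error can be given. The 12422 of 23475 genes averaging 0.5 FPKM or more in the 6 libraries were taken as log2(FPKM + 0.5) and compared by limma 3.58.1 in R 4.3.3, with a variance trend, two-sided, with Benjamini-Hochberg adjustment over all genes tested. Exact permutation tests used the 20 labelings of the libraries. RefSeq annotation of ARS-UCD2.0 gave spans and neighbours, with a match for 11463 tested genes (92.3%) and for all 44 members. Fold changes were given for members under an unadjusted p of 0.05 or without overlap, and, whatever their values, for HSPA5, HSP90B1, XBP1, ATF4, DDIT3, HSPA8, HSP90AA1 and HSPD1; other pathway genes were named at an unadjusted p under 0.05, at most 10 per direction. Any other fold change was chosen after its value was seen. The members and lists were chosen with earlier results of these data known. Alternatives were other pseudocounts, filters, scalings, variance models and weights, a replicate block, a correction for gene span, and each library left out.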

Additional observations from a re-analysis of the deposited data

How the results depend on the processing

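In limma, 0 of the 44 members passed an adjusted p of 0.05 under each of the 16 alternatives. Of 416 log2 fold changes of 26 named genes under these alternatives, 402 kept their sign. Of these genes, 12 were pathway genes named because they were under an unadjusted p of 0.05, which makes a turn of sign unlikely. Other members were not in this count, and many of them also turned in some settings. These were CALR, CANX, HYOU1, DNAJB11, MANF, CRELD2, ERO1A, ERN1, EIF2AK3, ATF6, TRIB3, CHAC1, PPP1R15A, HSPA4, HSP90AB1, DNAJA1, DNAJB1 and HSF2. With single libraries left out, values ran from −0.20 to 0.012 for HSPA5, from −0.16 to 0.021 for HSP90B1 and from −0.10 to 0.051 for DDIT3, positive without agomir NC replicate 3 and, for HSPA5, without agomir replicate 3 (0.0024). They ran from −0.022 to 0.020 for ATF4, from −0.014 to 0.032 for HSP90AA1 and from −0.0011 to 0.041 for HSPD1, negative without agomir replicate 2 (−0.012, −0.014 and −0.0011) or agomir NC replicate 2 (−0.022, −0.012 and −0.00032). The sign also turned with median-ratio scaling for ATF4 (−0.015) and HSP90AA1 (−0.0060), with array weights for ATF4 (−0.0016) and with quantile normalization for P4HB (0.011). None of these genes passed an adjusted p in either sign, and the cause was not tested.

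Of the members higher with the agomir at an unadjusted p under 0.05 (2), 1 (2.27%) was counted with no filter, median-ratio scaling or array weights. In these fits 5.23%, 5.42% and 6.59% of all genes tested were higher. With no variance trend 0 members were counted, against 6.12%. With single libraries left out there were from 0 to 3 (at most 6.82%), against 4.47% to 6.68% of all genes tested. Of those lower (2), 1 (2.27%) was counted with no filter, no variance trend or array weights, against 3.45%, 3.94% and 4.24% of all genes tested. With median-ratio scaling 3 were counted (6.82%, against 5.54% of all genes tested), and 3 with the gene span trend removed (6.82%, against 5.43%). With single libraries left out there were from 1 to 3 (2.27% to 6.82%), against 3.08% to 4.8% of all genes tested. The share of members was larger than that of all genes in 1 of the 16 alternatives for higher levels and in 11 for lower. Members without overlap that were higher (2) numbered 1 after the gene span trend was removed (2.27%, against 9.36% of all genes). With quantile normalization they numbered 3 (6.82%, against 8.94%), and without single libraries from 2 to 5 (5 members are 11.4%, against 16.5% of all genes). Those lower (2) numbered 6 with median-ratio scaling (13.6%, against 8.002% of all genes) and 3 with the gene span trend removed (6.82%, against 7.95%). With quantile normalization 1 was lower (2.27%, against 7.3%). Without single libraries they numbered from 2 to 10 (10 without agomir NC replicate 2, 22.7% against 11.8%), where fewer samples make overlap rarer. The ER median ran from −0.13 to 0.0068 and the cytosolic median from −0.012 to 0.037 without single libraries, and their difference from −0.14 to −0.03. SDF2L1 and HERPUD1, chosen after their values were seen, ran from −0.30 to −0.11 and from −0.18 to −0.074.

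With a replicate block, 1 member (2.27%) was higher and 3 (6.82%) were lower at an unadjusted p under 0.05. Over all genes 738 (5.94%) were higher and 522 (4.2%) lower, against 824 and 535 without the block. The replicate numbers are not said to pair the libraries. Deviations from the group means of libraries with the same number correlated across genes at −0.0506, 0.0532 and 0.0387. Of the 6 libraries, 2 correlated best with the library of their own number. These values show no sign of pairing, but they cannot exclude that libraries of the same number shared a calf or a batch. Depth is unknown, so its limit on low genes cannot be given.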
